A study of Mus musculus with 12 samples.

Results

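Chemokines are small secreted proteins that steer the movement of leukocytes, and their receptors are membrane proteins that signal through inhibitory G proteins. The genes described here are those in the table of protein-coding genes whose symbol is that of a numbered CC, CXC or CX3C ligand, or of a CC, CXC, XC, CX3C or atypical chemokine receptor, and whose level averaged at least 0.2 CPM (counts scaled to the size of the library) over the 12 libraries. Of 21646 protein-coding genes, 60 had such a symbol and 48 reached this level, namely 30 ligands and 18 receptors. Cxcr2 was the last gene inside the limit and Ccr4, at a mean of 0.197 CPM, the first outside it. The other genes under the limit were Cxcl3, Ccr10, Ccl1, Ccr8, Cxcr1, Ccl27b, Cxcl17, Cxcl11, Ccl20, Cxcl15 and Ccl26, and the last 3 of these had no counts.

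The RNA came from gonadal white adipose tissue (GWAT) of male mice in which both Hoip (Rnf31) alleles were floxed, so that the controls carried the floxed alleles too. HoipA-KO mice carried the AdipoQ.Cre transgene, which the adiponectin promoter drives in mature adipocytes, and WT mice were Cre-negative. From 6 weeks of age they were fed a control diet (CD, 14% fat per the labels) or a high-fat diet (HFD, 60% fat) for 16 weeks, and the series gives their age as 22 to 24 weeks. Each of the 4 groups had 3 libraries, and each library was made from RNA pooled from 3 mice, so the spread between libraries is a spread between pools.

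In the chemokine system a few receptors serve many ligands. CCR2 and its ligands bring monocytes from blood into tissue, CCR1 binds several ligands made by macrophages and lymphocytes, CXCR2 guides neutrophils, CXCR3 guides T and NK cells, and CCR7 and CXCR5 organise lymphoid tissue. Atypical receptors bind chemokines without G protein signalling and clear or transport them. In adipose tissue the CCR2 pathway is known for the accumulation of macrophages in obesity.

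The total of estimated counts per library ranged from 30513500 to 60540260, and 3 counts, taken as the floor of a library, corresponded to 0.0532 to 0.0983 CPM. These floors cover counting error only. Rnf31 itself stood at 12.6 to 20.6 CPM in the WT libraries and at 17.9 to 22.5 CPM in the HoipA-KO libraries, so its level over all cells of the tissue did not separate the groups and gives no check of the labels. The markers of adipocytes were present in all libraries, with a summed level of 13665 to 48059 CPM in WT and 5545 to 9112 CPM in HoipA-KO, and on both diets most of the 10 markers were lower in HoipA-KO (9 on CD and 10 on HFD). WT CD replicate 3 stood apart, with correlations across genes of 0.731 to 0.795 with the other libraries, which correlated among themselves at 0.833 to 0.994. The authors left it out of their own comparisons, and it is left out of the tests here. Its values are printed beside the others, in parentheses after those of WT CD. WT CD replicate 2 held 18821 CPM of markers of epididymal epithelium, against 0.736 CPM in WT CD replicate 1, so the WT CD group rests on 2 libraries that differ in tissue content. HoipA-KO HFD replicate 1 held 1570 CPM of these markers. Results that rest on these libraries are given with and without them, and where a WT CD library is left out the other one is assumed to vary like the libraries of the other groups.

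All levels below are CPM normalised by the trimmed mean of M-values (TMM), and every difference is a log2 fold change ± its standard error from edgeR's quasi-likelihood test over 18427 genes and 11 libraries. A gene is called higher or lower where the Benjamini-Hochberg adjusted p was under 0.05. Of the 48 genes, 46 passed the filter on low counts, and Cxcl5 and Ccl21d did not. A gene could pass through the group in which it was high, so the counts describe the genes and support nothing on their own. Between HoipA-KO and WT on CD 20 members were higher, while 18.9% of all genes tested were, and 5 were lower, against 18.8% of all genes. In either direction these were 54.3% of the members tested and 37.7% of all genes. On HFD 5 members were higher and 1 was lower in HoipA-KO, against 4.2% and 7.62% of all genes. The members called on HFD in either direction came to 13% of those tested, near the 11.8% of all genes. With all 12 libraries 2 members were higher and 1 was lower, while 2.78% of all genes were called in either direction. Only 1 member was called on HFD without WT HFD replicate 1, WT HFD replicate 2 or HoipA-KO HFD replicate 2, and 3 were without HoipA-KO CD replicate 1 or HoipA-KO HFD replicate 3. In WT, HFD was accompanied by 14 higher members and 1 lower member, against 9.35% and 5.47% of all genes. These calls rest on the spread estimated from all 4 groups, as edgeR called 0 members in a fit of the 5 WT libraries alone, where 22 had an unadjusted p under 0.05 and the lowest adjusted p was 0.0861. DESeq2's Wald test over all 4 groups called 22 members between the diets in WT. Between the diets in HoipA-KO no member was called, with 0% of all genes called, and 3 members had an unadjusted p under 0.05. DESeq2's Wald test called 0 members there as well.

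The median log2 fold change over the members was 1.02 for HoipA-KO against WT on CD, where the median over all genes was -0.06. It was 0.46 against 0.06 on HFD, 0.96 against 0.00 for HFD in WT and 0.02 against -0.01 for HFD in HoipA-KO. All libraries of the HoipA-KO CD group lay above both WT CD libraries for 29 members and below them for 6, and the shares of all genes with such groups were 28.3% and 25.6%. On HFD the HoipA-KO libraries lay above those of WT for 16 members and below for 2, against 20.7% and 22.7% of all genes. With respect to genotype, Ccl3, Cxcl2 and Cxcl16 were called higher on both diets and Ackr3 was called lower on both. A further 17 members were called higher and 4 lower on CD alone, Ccl8 and Cxcr6 were called higher on HFD alone, and 19 were called on neither diet. A call on 1 diet alone is not a difference between the diets, which is tested as an interaction further on.

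**Figure D1:**
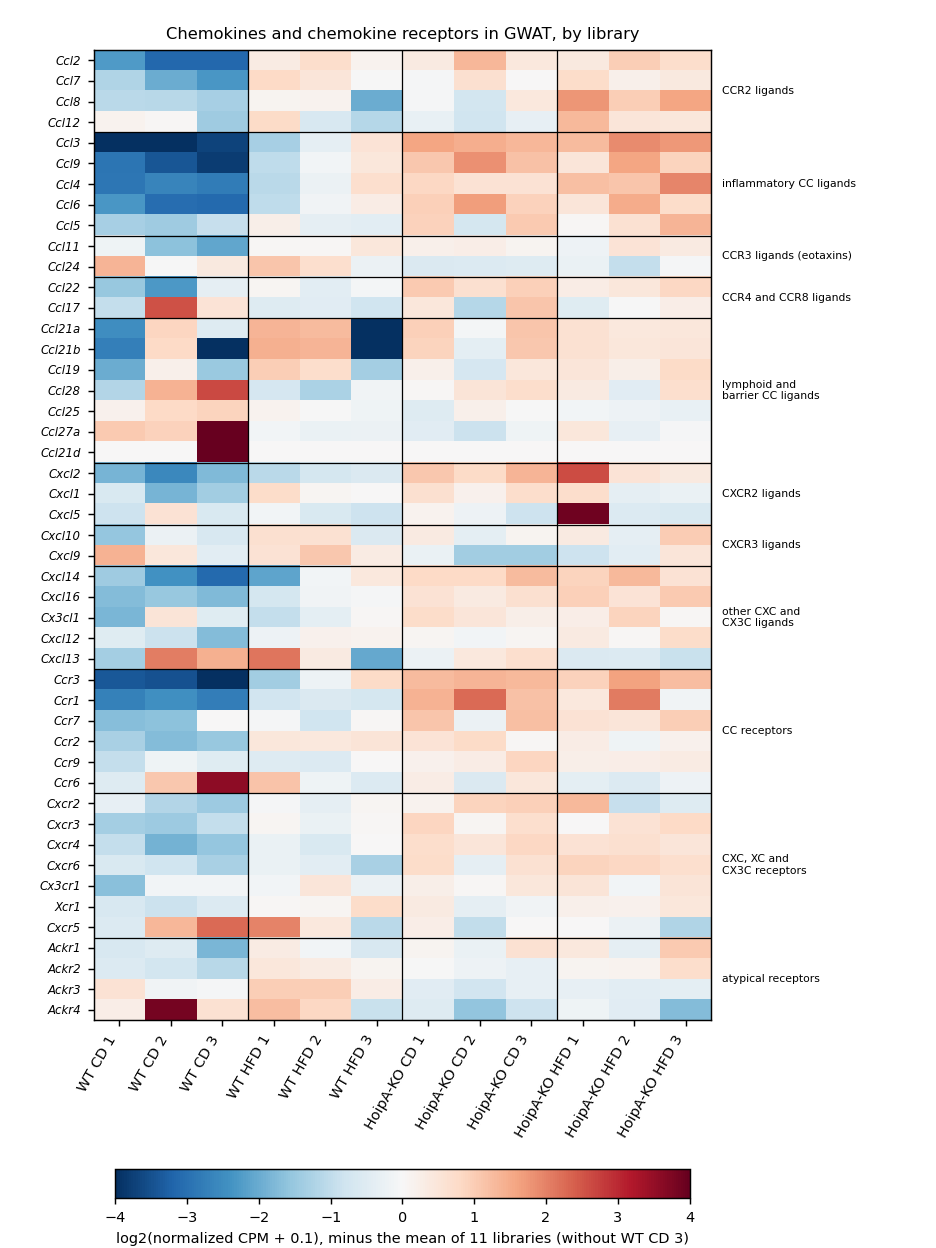
Heat map of 47 chemokine and chemokine receptor genes (rows, grouped by role) in the 12 libraries (columns). Colour gives log2(normalised CPM + 0.1) minus the mean of the gene over the 11 libraries used in the tests, from blue (lower) to red (higher), cut at 4 in either direction. The inflammatory CC ligands are blue in WT CD, and single dark red cells mark Ackr4 in WT CD 2 (36.2 CPM), Ccl27a and Ccl21d in WT CD 3 (69.1 and 13.8 CPM) and Cxcl5 in HoipA-KO HFD 1 (2.54 CPM).

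The neighbouring genes Ccl6 and Ccl9 had the highest ligand levels in HoipA-KO, but not in WT CD. Per kilobase of exon, averaged over the 11 libraries, Ccl6 stood first with 296 CPM per kb and Ccl9 second with 193, followed by Ccl21a (69.3), Ccl8 (53.2) and Ccl11 (45.4). Ccl6 and Ccl9 encode CC ligands of CCR1 that macrophages make. In WT CD the mean level was 46.8 CPM per kb for Ccl21a, 32.7 for Ccl6, 25.9 for Ccl11 and 13.9 for Ccl9, and Ccl21a was the top ligand in WT CD replicates 2 and 3 and in WT HFD replicate 1, while Ccl6 was in the other 9 libraries. Together they made up 28.8% and 13.5% of the ligand level per kb in WT CD, 28.4%, 42.4% and 68.3% in WT HFD, 63.1%, 78.2% and 61.4% in HoipA-KO CD, and 49.5%, 68.8% and 54.0% in HoipA-KO HFD. The summed ligand level was 197 and 271 CPM per kb in WT CD, 575, 712 and 614 in WT HFD, 1053, 1403 and 1097 in HoipA-KO CD and 926, 1368 and 1051 in HoipA-KO HFD. For the receptors the sum was 33.3 and 31 CPM per kb in WT CD, 60.2 to 62.2 in WT HFD and 75.4 to 83.9 in HoipA-KO on either diet. The receptor with the highest level per kb was Ackr3 in 5 of the 6 WT libraries and Cxcr4 in 5 of the 6 HoipA-KO libraries. WT CD replicate 3, with 180 CPM per kb of ligands and 25.7 of receptors, lay near the other WT CD libraries in these sums.

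The inflammatory CC ligands, most of which bind CCR1, were called higher in HoipA-KO GWAT on CD in all 5 cases (Ccl3, Ccl4, Ccl5, Ccl6 and Ccl9). Their median log2 fold change of 4.03 was the highest among the 11 role groups of the heat map. Ccl3, the macrophage inflammatory protein that binds CCR1, stood at 0.190 and 0.169 in WT CD (0.256 in replicate 3), 1.74, 3.54 and 6.62 in WT HFD, 13.6, 12.4 and 11.6 in HoipA-KO CD and 10.9, 16.9 and 15.4 in HoipA-KO HFD. In both WT CD libraries this level rested on 8 counts. The difference between the genotypes was 6.11 ± 0.61 (adjusted p = 0.000452) on CD and 1.85 ± 0.40 (adjusted p = 0.0234) on HFD, and between the diets in WT it was 4.45 ± 0.58 (adjusted p = 0.00617). The libraries of HoipA-KO and WT did not overlap on either diet, but the HFD call ended when any of 4 single libraries was left out (adjusted p up to 0.0910). Ccl4, another macrophage inflammatory protein, which lies next to Ccl3, stood at 0.143 and 0.190 in WT CD (0.164 in replicate 3), 0.754, 1.43 and 2.80 in WT HFD, 3.09, 2.59 and 2.59 in HoipA-KO CD and 4.06, 3.86 and 6.95 in HoipA-KO HFD. The WT CD levels of Ccl4 rested on 6 and 9 counts. Its genotype difference was 4.03 ± 0.61 (adjusted p = 0.00117) on CD, which is also the group median given above. With HFD in WT the difference was 3.30 ± 0.59 (adjusted p = 0.00901). Between the genotypes on HFD it reached 1.57 ± 0.45 (adjusted p = 0.05), just over the threshold, and was not called.

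Ccl6 and Ccl9, the members with the highest levels per kb, ran in parallel. Ccl6 was measured at 72.8 and 44.8 in WT CD (42.8 in replicate 3), 182, 335 and 449 in WT HFD, 721, 1181 and 705 in HoipA-KO CD and 514, 1024 and 609.5 in HoipA-KO HFD. For Ccl9 the levels were 49.6 and 35.1 in WT CD (27.2 in replicate 3), 188, 353 and 514 in WT HFD, 801, 1337 and 855 in HoipA-KO CD and 523, 1131 and 693 in HoipA-KO HFD. Both were lowest in WT CD, intermediate in WT HFD and highest in HoipA-KO, with no overlap between genotypes on either diet. On CD the genotype difference was 3.89 ± 0.52 (adjusted p = 0.000756) for Ccl6 and 4.56 ± 0.56 (adjusted p = 0.000545) for Ccl9, on HFD 1.15 ± 0.40 (adjusted p = 0.0837) and 1.15 ± 0.41 (adjusted p = 0.0898). With HFD in WT, Ccl6 rose by 2.45 ± 0.48 (adjusted p = 0.0121) and Ccl9 by 3.05 ± 0.51 (adjusted p = 0.00745). The call for Ccl6 in WT ended without WT CD replicate 2 (log2 2.15, adjusted p = 0.0736). Ccl5, the T cell and NK cell product that binds CCR1 and CCR3, was at 2.19 and 2.07 in WT CD (2.94 in replicate 3), 6.72, 4.38 and 4.20 in WT HFD, 10.8, 3.47 and 11.7 in HoipA-KO CD and 5.83, 8.75 and 14.8 in HoipA-KO HFD. It differed by 2.02 ± 0.56 (adjusted p = 0.0196) on CD, a call that ended when WT CD replicate 1 (log2 2.06, adjusted p = 0.0671), WT CD replicate 2, HoipA-KO CD replicate 1 or HoipA-KO CD replicate 3 was left out.

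Their receptor Ccr1, found on monocytes, macrophages and neutrophils, stood at 2.35 and 2.83 in WT CD (2.28 in replicate 3), 9.31, 10.6 and 9.83 in WT HFD, 42.2, 77.6 and 36.1 in HoipA-KO CD and 21.5, 67.0 and 14.5 in HoipA-KO HFD. It differed by 4.32 ± 0.69 (adjusted p = 0.00152) on CD, and on HFD by 1.79 ± 0.52 (adjusted p = 0.0525), which was not called.

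The macrophage markers moved with these genes. Of 9 macrophage markers 8 were higher in HoipA-KO on CD, 4 were on HFD and 8 were higher with HFD in WT. Their summed level was 324 to 466 CPM in WT CD, 1075 to 3127 in WT HFD, 4169 to 4894 in HoipA-KO CD and 3638 to 5379 in HoipA-KO HFD. Adgre1, the gene of F4/80, stood at 13.3 and 19.6 CPM in WT CD and between 321 and 689 CPM in HoipA-KO CD. In such bulk samples more cells of a type and more RNA per cell cannot be told apart, and the part of cell number in the chemokine values was not tested.

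Promoter sequences were available for 37 of the 48 members from RefSeq (GRCm38.p6), each covering 250 bases before and 50 after a transcription start. They were searched on both strands for the NF-κB consensus, since HOIP is part of the complex that builds linear ubiquitin chains in NF-κB signalling. The consensus was found in 22% of the 41 member promoters and in 8.46% of all 32851 mouse promoters. The genes were Ackr2, Ccl27a, Ccl9, Ccr1, Ccr3, Ccr6, Cxcl1, Cxcl10 and Cxcl2, which are 9 of the 37 members with a sequence. Of them 5 belong to the 13 members with a promoter sequence that were higher in HoipA-KO on CD. The others of these 13, Ccl3, Ccl6, Ccl22, Ccr2, Cxcl12, Cxcl14, Cxcr3 and Cxcr4, had no match. No sequence was available for 11 members, among them Ccl2, Ccl4, Ccl5 and Ccl7. A part of NF-κB in the differences was not tested. The AP-1 motif TGANTCA was present in 14.6% of the member promoters and in 7.81% of all, and the PU.1 motif GAGGAAG in 17.1% and 13.6%. A match is a string of letters and not a measured site. Shown here are Ccl9 and Ccr1, a ligand and its receptor that both rose on CD, with the NF-κB match in capitals and the sense strand of the gene written 5′ to 3′. The match begins 35 bases before the start of Ccl9 and 74 bases before that of Ccr1. The Ccl9 window is chr11:83578587-83578886 (minus strand) and the Ccr1 window is chr9:123968643-123968942 (minus strand).
Ccl9: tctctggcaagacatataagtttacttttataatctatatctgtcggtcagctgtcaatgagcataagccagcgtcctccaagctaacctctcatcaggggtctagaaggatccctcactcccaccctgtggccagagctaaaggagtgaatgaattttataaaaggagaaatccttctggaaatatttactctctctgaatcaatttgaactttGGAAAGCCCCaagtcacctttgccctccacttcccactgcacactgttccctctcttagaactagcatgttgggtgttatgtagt
Ccr1: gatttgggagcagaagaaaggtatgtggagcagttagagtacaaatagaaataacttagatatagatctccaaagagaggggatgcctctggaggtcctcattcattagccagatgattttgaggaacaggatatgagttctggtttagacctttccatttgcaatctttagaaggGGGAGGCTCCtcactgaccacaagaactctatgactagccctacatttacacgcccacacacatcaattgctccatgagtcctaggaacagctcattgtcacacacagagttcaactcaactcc

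Of the 4 CCR2 ligands 2 were called on CD and another one on HFD. Ccl2, the monocyte chemoattractant protein of CCR2, stood at 3.94 and 2.13 in WT CD (2.14 in replicate 3), 24.5, 31.8 and 21.5 in WT HFD, 24.7, 49.4 and 26.1 in HoipA-KO CD and 25.6, 38.9 and 31.9 in HoipA-KO HFD. Its neighbour Ccl7, another CCR2 ligand, stood at 4.54 and 2.60 in WT CD (2.03 in replicate 3), 18.5, 15.1 and 10.5 in WT HFD, 10.3, 16.7 and 10.7 in HoipA-KO CD and 17.8, 12.3 and 14.0 in HoipA-KO HFD. Both were lowest in WT CD and at like levels in the other groups, so that the genotypes were apart on CD (3.46 ± 0.42, adjusted p = 0.000540 for Ccl2 and 1.82 ± 0.36, adjusted p = 0.00401 for Ccl7) and overlapped on HFD (0.31 ± 0.32, adjusted p = 0.529 and 0.00 ± 0.30, adjusted p = 0.999). With HFD in WT the differences were 3.10 ± 0.41 (adjusted p = 0.00617) and 2.04 ± 0.36 (adjusted p = 0.00843). Ccl8, a monocyte chemoattractant of the same cluster, was at 9.62 and 9.34 in WT CD (8.12 in replicate 3), 22.2, 22.3 and 5.07 in WT HFD, 19.6, 12.1 and 27.3 in HoipA-KO CD and 69.6, 40.9 and 61.1 in HoipA-KO HFD. Here HoipA-KO HFD lay above every other library. The genotype difference of Ccl8 was 1.79 ± 0.51 (adjusted p = 0.0485) on HFD and 1.05 ± 0.57 (adjusted p = 0.170) on CD, where it was not called. The HFD call ended when any of 8 libraries was left out, with adjusted p from 0.0539 to 0.116, and with all 12 libraries (log2 1.78, adjusted p = 0.0814). Ccl12, also a CCR2 ligand in mice, was at 2.23 and 2.07 in WT CD (0.694 in replicate 3), 3.54, 1.26 and 0.866 in WT HFD, 1.63, 1.12 and 1.60 in HoipA-KO CD and 5.14, 2.85 and 2.79 in HoipA-KO HFD. It was called in no comparison. In HoipA-KO the difference of HFD against CD was 1.54 for Ccl8 and 1.31 for Ccl12 on the log2 scale (unadjusted p = 0.0122 and 0.0269 in edgeR's quasi-likelihood test), and neither passed the adjustment.

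Ccr2, the receptor of these ligands on inflammatory monocytes, stood at 14.3 and 10.4 in WT CD (12.2 in replicate 3), 48.0, 46.8 and 50.9 in WT HFD, 51.7, 59.9 and 36.4 in HoipA-KO CD and 43.0, 31.4 and 40.1 in HoipA-KO HFD. It was lowest in WT CD, where both libraries lay far below those of the other groups. The genotype difference was 2.00 ± 0.24 (adjusted p = 0.000545) on CD. On HFD all 3 HoipA-KO libraries lay below those of WT, but the difference of -0.35 ± 0.20 (adjusted p = 0.266) was not called. The diet difference in WT was 1.97 ± 0.24 (adjusted p = 0.00617). Of 4 monocyte markers none was called between the genotypes on CD, and 1 was called higher on HFD. Their summed level was 5.63 to 13.8 CPM in WT CD, 12.3 to 17.3 in WT HFD, 22.0 to 25.8 in HoipA-KO CD and 22.9 to 106 in HoipA-KO HFD.

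**Figure D2:**
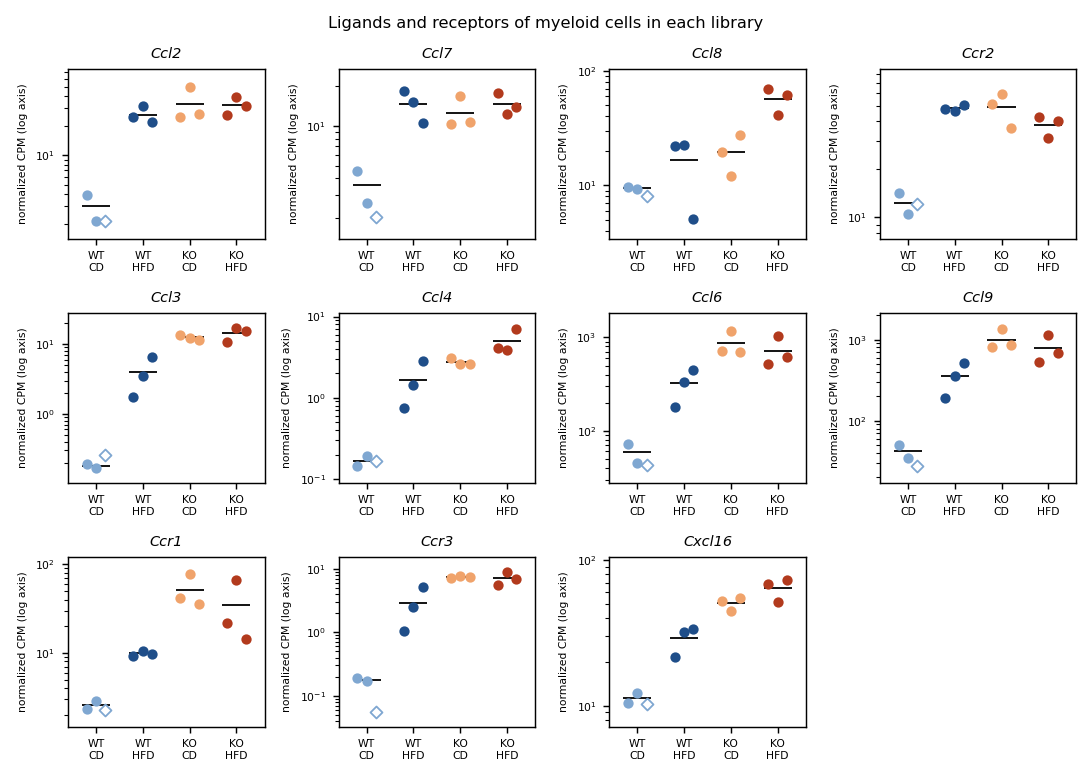
Normalised CPM (log axis) of 11 ligands and receptors of myeloid cells in each library, by group, where KO stands for HoipA-KO. Points are libraries of 3 pooled mice, black lines are group means, and the open diamond is WT CD replicate 3, which is outside the means. Ccl2, Ccl7 and Ccr2 are low in WT CD and alike in the other groups, whereas Ccl8 is highest in HoipA-KO HFD, at 40.9 to 69.6 CPM.

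Ccr3 was called higher on CD, and of its eotaxins Ccl11 was not called and Ccl24 was called lower. This receptor, known from eosinophils and also carried by mast cells, stood at 0.190 and 0.169 in WT CD (0.0548 in replicate 3), 1.05, 2.54 and 5.09 in WT HFD, 7.22, 7.73 and 7.37 in HoipA-KO CD and 5.67, 9.09 and 7.04 in HoipA-KO HFD. It differed by 5.36 ± 0.67 (adjusted p = 0.000591) between genotypes on CD and by 4.0 ± 0.64 (adjusted p = 0.00672) between diets in WT, and on HFD the value was 1.32 ± 0.46 (adjusted p = 0.0855). The WT CD level rested on 8 counts in both libraries. Ccl11, eotaxin-1, was at 41.2 and 14.9 in WT CD (11 in replicate 3), 47.6, 47.4 and 63.3 in WT HFD, 53.7, 55.7 and 50.3 in HoipA-KO CD and 40.0, 67.3 and 59.3 in HoipA-KO HFD. It was not called between genotypes on CD (0.92 ± 0.38, adjusted p = 0.0781) or on HFD (0.07 ± 0.33, adjusted p = 0.893). The CD value of Ccl11 was called with all 12 libraries (log2 1.21, adjusted p = 0.0465), with DESeq2's Wald test (log2 0.89, adjusted p = 0.0389), with library size only and without WT CD replicate 1 (log2 1.82, adjusted p = 0.00248). Ccl24, eotaxin-2, a product of alternatively activated macrophages, stood at 7.22 and 2.72 in WT CD (3.65 in replicate 3), 6.00, 4.46 and 2.31 in WT HFD, 1.81, 1.84 and 1.88 in HoipA-KO CD and 2.28, 1.37 and 2.66 in HoipA-KO HFD. On CD it was called lower in HoipA-KO (-1.43 ± 0.49, adjusted p = 0.0430), a call that ended without any of 5 single libraries, and without WT CD replicate 1 the value was log2 -0.57, adjusted p = 0.409. Among the eosinophil markers Epx was at or near 0 in all libraries (at most 0.163 CPM), and the summed level of 3 markers reached at most 2.46 CPM. Siglecf, the eosinophil surface lectin gene, was called higher in HoipA-KO on CD (adjusted p = 0.00255) and with HFD in WT (adjusted p = 0.0241). Its levels were 0 and 0.0634 in WT CD (0.0913 in replicate 3), 0.360, 0.357 and 0.783 in WT HFD, 1.59, 1.47 and 0.993 in HoipA-KO CD and 0.417, 1.05 and 0.710 in HoipA-KO HFD. In WT CD these levels lay at 0 and at the floor of 3 counts. The other eosinophil marker tested was called in neither comparison. All 5 mast cell markers were higher in HoipA-KO on CD, with a summed level of 3.91 to 5.89 CPM in WT CD, 9.14 to 188 in WT HFD, 537 to 638 in HoipA-KO CD and 290 to 807 in HoipA-KO HFD. The mast cell gene Cpa3 stood at 1.05 and 0.401 in WT CD (1.10 in replicate 3), 0.885, 13.7 and 43.3 in WT HFD, 109, 120.3 and 74.6 in HoipA-KO CD and 48.2, 154 and 85.5 in HoipA-KO HFD. The part of mast cells and eosinophils in the Ccr3 values was not tested.

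Of the 3 ligands of CXCR2, Cxcl1 and Cxcl2 were called higher on CD, from low levels, and Cxcl5 had too few counts to be tested. Cxcl2 stood at 0.309 and 0.148 in WT CD (0.329 in replicate 3), 0.590, 0.809 and 0.886 in WT HFD, 3.02, 2.39 and 3.67 in HoipA-KO CD and 8.89, 2.06 and 1.84 in HoipA-KO HFD. The HoipA-KO libraries lay above those of WT on both diets, with differences of 3.72 ± 0.78 (adjusted p = 0.00578) on CD and 2.48 ± 0.61 (adjusted p = 0.0346) on HFD. The HFD call ended with all 12 libraries (log2 2.48, adjusted p = 0.0622) and when any of 5 single libraries was left out, with adjusted p up to 0.130. Without HoipA-KO HFD replicate 1, the library with the highest level, the value was log2 1.35, adjusted p = 0.0465. Cxcl1 was at 1.14 and 0.422 in WT CD (0.621 in replicate 3), 3.01, 1.88 and 1.79 in WT HFD, 2.84, 2.02 and 2.98 in HoipA-KO CD and 2.95, 1.37 and 1.47 in HoipA-KO HFD. It was called on CD alone (1.74 ± 0.53, adjusted p = 0.0288), a call that ended without WT CD replicate 2 (log2 1.20, adjusted p = 0.134), HoipA-KO CD replicate 1 or HoipA-KO CD replicate 3, and on HFD the difference was -0.20 ± 0.44 (adjusted p = 0.776). Cxcl5, another ligand of CXCR2, was at 0 to 0.169 CPM in the other libraries and at 2.54 CPM in HoipA-KO HFD replicate 1. The receptor Cxcr2 was at 0.119 and 0.0211 in WT CD (0 in replicate 3), 0.164, 0.113 and 0.185 in WT HFD, 0.198, 0.404 and 0.425 in HoipA-KO CD and 0.561, 0.0449 and 0.0887 in HoipA-KO HFD. Its levels were low throughout and no comparison was called (2.28 ± 1.10, adjusted p = 0.129 on CD). In HoipA-KO HFD replicate 1, which held 1570 CPM of markers of epididymal epithelium, some neutrophil genes were high as well. S100a8 stood there at 37.8 CPM and S100a9 at 31.6 CPM, against at most 20.3 and 4.96 CPM in any other library. Retnlg stood there at 1.41 CPM, against at most 0.628 CPM elsewhere. Csf3r did not set this library apart, at 12.12 CPM there and 12.03 CPM in HoipA-KO HFD replicate 3. Ly6g was at or near 0 in all libraries (at most 0.0543 CPM). The summed level of the 5 neutrophil markers was 82.9 CPM in HoipA-KO HFD replicate 1 and 2.89 to 25.6 CPM in the other libraries. Of the 4 markers tested, 1 was called higher in HoipA-KO on each diet. The part of neutrophils and of epididymal tissue in the Cxcl2 value was not tested.

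Cxcl1 and Cxcl2 lie next to each other on chromosome 5, and their promoters carried the NF-κB consensus in the same letters. They are shown because both genes were called higher on CD, and the capitals join matches on both strands that overlap. The matched stretch begins 71 bases before the start of Cxcl1 and 97 bases before that of Cxcl2. The windows are chr5:90890995-90891294 and chr5:90903649-90903948 (GRCm38.p6, plus strand), with the match in capitals.
Cxcl1: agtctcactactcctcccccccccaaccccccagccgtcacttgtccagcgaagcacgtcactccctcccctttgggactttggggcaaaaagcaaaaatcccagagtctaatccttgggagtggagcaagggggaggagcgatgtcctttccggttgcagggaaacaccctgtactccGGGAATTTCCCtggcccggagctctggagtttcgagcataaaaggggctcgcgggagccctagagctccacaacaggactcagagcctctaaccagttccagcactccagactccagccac
Cxcl2: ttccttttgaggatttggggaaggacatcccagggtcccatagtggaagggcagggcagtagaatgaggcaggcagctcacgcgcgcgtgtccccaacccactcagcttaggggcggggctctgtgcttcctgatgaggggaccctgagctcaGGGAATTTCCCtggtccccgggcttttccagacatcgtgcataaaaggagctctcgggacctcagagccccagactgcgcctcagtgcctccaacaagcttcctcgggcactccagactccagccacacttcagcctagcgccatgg

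Of the interferon-inducible ligands of CXCR3, Cxcl9 was called lower on CD, where the receptor was called higher, and Cxcl10 was called in no comparison. Cxcr3, carried by effector T cells and NK cells, stood at 1.02 and 0.950 in WT CD (1.41 in replicate 3), 2.95, 2.30 and 2.89 in WT HFD, 5.22, 2.95 and 4.54 in HoipA-KO CD and 2.81, 4.20 and 4.98 in HoipA-KO HFD. It was higher in HoipA-KO on CD (2.1 ± 0.36, adjusted p = 0.00205) and with HFD in WT (1.46 ± 0.35, adjusted p = 0.0250), but was not called on HFD between genotypes (0.56 ± 0.29, adjusted p = 0.219). The WT call ended without any of 4 single libraries (adjusted p up to 0.104). Cxcl9 was at 55.4 and 29.0 in WT CD (15.7 in replicate 3), 31.9, 45.0 and 26.6 in WT HFD, 17.5, 7.98 and 8.04 in HoipA-KO CD and 12, 16.0 and 30.0 in HoipA-KO HFD. On CD it was lower in HoipA-KO (-1.92 ± 0.48, adjusted p = 0.0122), the direction opposite to that of the receptor, and without WT CD replicate 1 the value was log2 -1.38, adjusted p = 0.0762. On HFD the difference was -0.84 ± 0.43 (adjusted p = 0.213). Cxcl10 was at 0.641 and 1.73 in WT CD (1.28 in replicate 3), 3.28, 3.20 and 1.34 in WT HFD, 2.7, 1.56 and 2.23 in HoipA-KO CD and 2.7, 1.59 and 4.29 in HoipA-KO HFD. Its groups overlapped in both genotype comparisons and neither was called (0.86 ± 0.59, adjusted p = 0.270 on CD and 0.14 ± 0.51, adjusted p = 0.870 on HFD). Of 7 T cell markers 1 was higher on CD, and their summed level ranged from 8.30 to 26.2 CPM over the libraries used in the tests.

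Cxcl16 was called in 3 comparisons, and in each of them also with any of the 11 libraries left out. This ligand, made by macrophages and dendritic cells as a membrane protein, stood at 10.4 and 12.2 in WT CD (10.3 in replicate 3), 21.6, 32.0 and 33.8 in WT HFD, 52.6, 44.7 and 55.2 in HoipA-KO CD and 68.2, 51.7 and 73.1 in HoipA-KO HFD. It was higher in HoipA-KO on CD (2.17 ± 0.24, adjusted p = 0.000464), on HFD the difference was 1.14 ± 0.20 (adjusted p = 0.0129), and with HFD in WT it was 1.37 ± 0.23 (adjusted p = 0.00749). Among the 6 members called on HFD it was the only one whose call did not end in this way. Its receptor Cxcr6, a marker of tissue-resident T and NKT cells, was at 1.76 and 1.52 in WT CD (1.04 in replicate 3), 2.23, 2.01 and 1.05 in WT HFD, 4.56, 2.11 and 4.23 in HoipA-KO CD and 5.20, 4.96 and 4.45 in HoipA-KO HFD. It was called higher in HoipA-KO on HFD (1.47 ± 0.36, adjusted p = 0.0345) and just missed the threshold on CD (1.15 ± 0.41, adjusted p = 0.0522). The HFD call ended without any of 7 single libraries, with adjusted p from 0.0534 to 0.0966, and with all 12 libraries (log2 1.45, adjusted p = 0.0792). The pair Cx3cl1 and Cx3cr1, which holds patrolling monocytes and some macrophages, was called in no comparison. Cx3cl1 was at 3.54 and 18.4 in WT CD (9.27 in replicate 3), 6.59, 9.80 and 13.3 in WT HFD, 21.5, 18.2 and 15.3 in HoipA-KO CD and 15.7, 24.3 and 13.4 in HoipA-KO HFD. The WT CD libraries lay apart, and without WT CD replicate 2, the one with epididymal markers, the CD difference was log2 2.38, adjusted p = 0.00655. Cx3cr1 was at 1.28 and 3.99 in WT CD (4.02 in replicate 3), 4.03, 6.13 and 3.71 in WT HFD, 5.12, 4.48 and 6.04 in HoipA-KO CD and 6.19, 4.04 and 6.19 in HoipA-KO HFD. Reads of Cx3cr1 can also be of genes that overlap it on the same strand.

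The stromal ligand Cxcl12, which retains leukocytes through CXCR4, gave small differences. It stood at 134 and 102 in WT CD (55.1 in replicate 3), 162, 209.5 and 204 in WT HFD, 197, 174 and 194 in HoipA-KO CD and 239, 191 and 312 in HoipA-KO HFD. The CD difference of 0.67 ± 0.23 (adjusted p = 0.0421) was called, but not when any of 7 single libraries was left out, with adjusted p from 0.0602 to 0.197. On HFD the difference was 0.37 ± 0.20 (adjusted p = 0.238). Its signalling receptor Cxcr4 was at 15.2 and 7.79 in WT CD (9.93 in replicate 3), 24.3, 19.0 and 29.8 in WT HFD, 47.5, 41.1 and 52.1 in HoipA-KO CD and 44.0, 46.2 and 40.7 in HoipA-KO HFD. It differed by 2.03 ± 0.29 (adjusted p = 0.000958) on CD and by 1.08 ± 0.28 (adjusted p = 0.0323) with HFD in WT, while on HFD the difference of 0.84 ± 0.24 (adjusted p = 0.0518) missed the threshold. The WT call ended without any of 5 single libraries (adjusted p up to 0.141). Ackr3, the atypical receptor that scavenges Cxcl12, went the other way. Its levels were 43.0 and 25.7 in WT CD (27.9 in replicate 3), 56.9, 57.1 and 34.8 in WT HFD, 21.0, 16.8 and 22.6 in HoipA-KO CD and 22.8, 21.1 and 21.6 in HoipA-KO HFD. It was lower in HoipA-KO on HFD (-1.18 ± 0.24, adjusted p = 0.0188) and on CD (-0.77 ± 0.26, adjusted p = 0.0419). The HFD call ended without any of 4 single libraries (adjusted p up to 0.0757), and the CD call ended without any of 5, most of all without WT CD replicate 1 (log2 -0.36, adjusted p = 0.341), and with all 12 libraries (log2 -0.71, adjusted p = 0.0508). The adipocyte markers fell in HoipA-KO as given above and 2 of 5 endothelial markers were lower on each diet. Their part in the Ackr3 values was not tested.

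**Figure D3:**
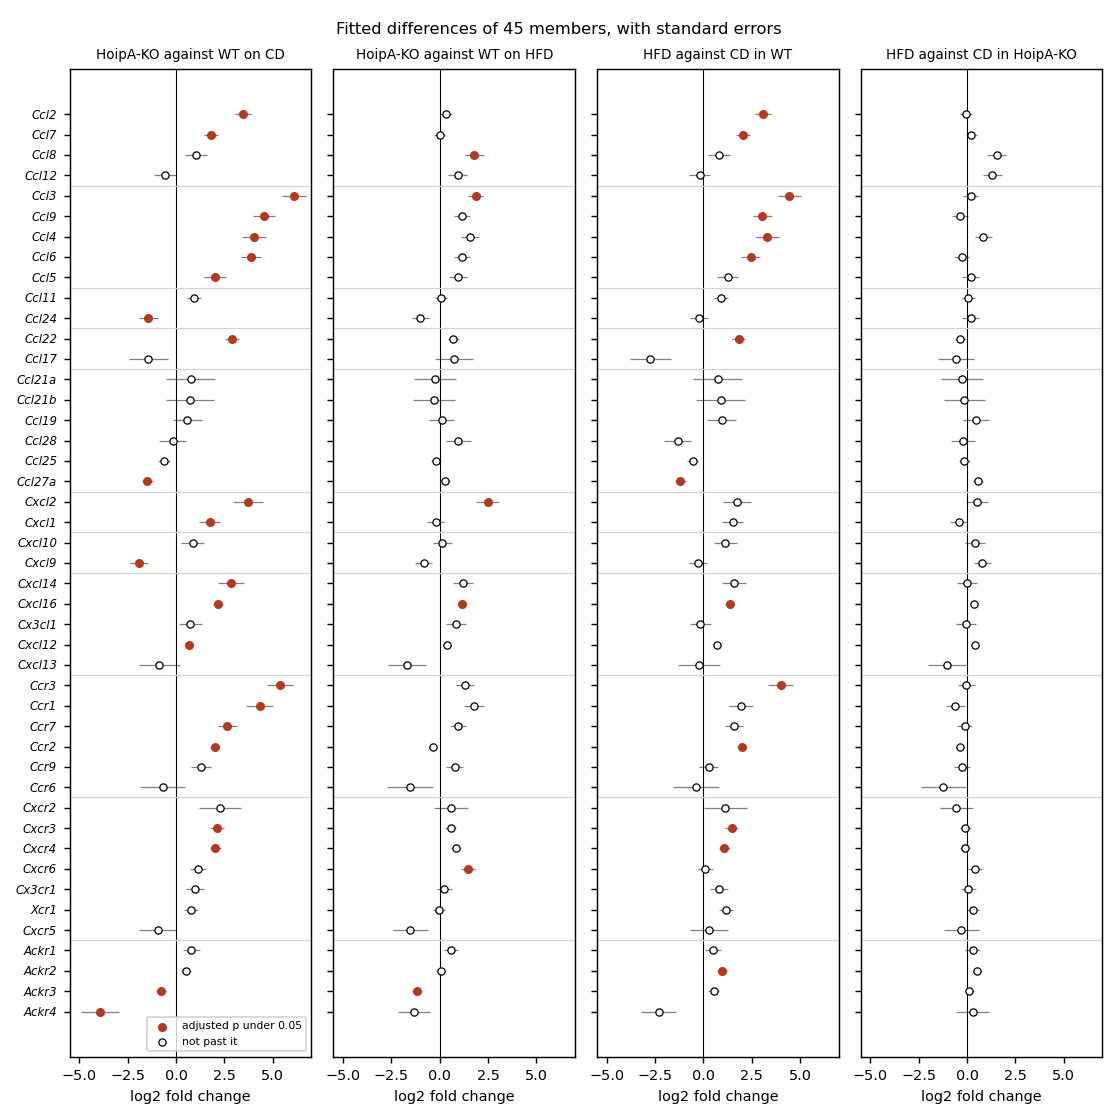
Log2 fold changes of 45 tested members (rows, grouped by role) in 4 comparisons, with standard errors as bars. Filled points have an adjusted p under 0.05 in edgeR's quasi-likelihood test. Most filled points lie right of 0 in the CD panel, 6 points are filled in the HFD panel, and none is filled for HFD against CD in HoipA-KO.

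Other atypical receptors, which clear chemokines, gave single results. Ackr4, which takes up CCL19, CCL21 and CCL25, was at 2.99 and 36.2 in WT CD (3.81 in replicate 3), 6.00, 4.52 and 1.28 in WT HFD, 1.71, 0.771 and 1.36 in HoipA-KO CD and 2.21, 1.80 and 0.674 in HoipA-KO HFD. The CD call (-3.94 ± 0.97, adjusted p = 0.0117) rested on WT CD replicate 2, the library with epididymal markers, and without it the value was log2 -1.22, adjusted p = 0.274. Ackr2, the scavenger of inflammatory CC chemokines, was called higher with HFD in WT (0.98 ± 0.26, adjusted p = 0.0374), a call that ended without any of 6 single libraries (adjusted p up to 0.140). Its levels were 2.76 and 2.41 CPM in WT CD, 1.84 CPM in replicate 3, and 4.45 to 5.64 CPM in WT HFD. Ackr1, the carrier of chemokines across venules, was called in no comparison, and its reads can also be of Cadm3, which overlaps it on the same strand.

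Among ligands of regulatory and dendritic cells, Ccl22, made by dendritic cells and macrophages for CCR4, was at 1.05 and 0.570 in WT CD (2.45 in replicate 3), 3.34, 2.31 and 2.99 in WT HFD, 6.65, 4.99 and 6.16 in HoipA-KO CD and 3.91, 4.38 and 5.69 in HoipA-KO HFD. It differed by 2.88 ± 0.36 (adjusted p = 0.000581) on CD and 1.83 ± 0.34 (adjusted p = 0.0102) with HFD in WT, where the value without WT CD replicate 2 was log2 1.46, adjusted p = 0.0504. For this gene WT CD replicate 3 lay among the WT HFD libraries, and with all 12 libraries the diet difference in WT was log2 1.08, adjusted p = 0.127. Its neighbour Ccl17, another CCR4 ligand, was highest in WT CD replicate 2 at 2.34 CPM, against at most 0.810 CPM elsewhere, and was not called. Cxcl14, a chemokine of stromal and epithelial tissue, was at 7.36 and 3.63 in WT CD (2.24 in replicate 3), 4.55, 18.6 and 26.9 in WT HFD, 35.1, 35 and 47.9 in HoipA-KO CD and 37.2, 49.0 and 29.9 in HoipA-KO HFD. It rose on CD (2.84 ± 0.66, adjusted p = 0.00871), a call that ended without WT CD replicate 2 (log2 2.42, adjusted p = 0.0521), and on HFD the difference was 1.21 ± 0.52 (adjusted p = 0.148).

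The lymphoid ligands followed single libraries and not the groups. Ccl21a, the ligand of CCR7 made by lymphatic endothelium and lymph node stroma, stood at 7.2 and 74.3 in WT CD (28.0 in replicate 3), 105, 97.5 and 1.63 in WT HFD, 78.8, 38.3 and 88.3 in HoipA-KO CD and 61.9, 54.8 and 55.9 in HoipA-KO HFD. WT CD replicate 1 and WT HFD replicate 3 were the lowest libraries. Ccl21b, a near-identical copy whose reads cannot be cleanly split from those of Ccl21a, was at 1.5 and 0.577 CPM in these 2 libraries, at 0 in WT CD replicate 3 and at 8.09 to 28.4 CPM in the others. Ccl19, the other CCR7 ligand, was at 0.808 and 4.08 in WT CD (1.19 in replicate 3), 7.04, 5.74 and 1.32 in WT HFD, 4.05, 2.17 and 4.82 in HoipA-KO CD and 4.91, 4.17 and 6.03 in HoipA-KO HFD. None of these genes was called, and the differences had wide errors (0.75 ± 1.25, adjusted p = 0.664 for Ccl21a on CD and -0.24 ± 1.10, adjusted p = 0.896 on HFD). Of the 4 lymphatic endothelial markers, Reln, Mmrn1 and Prox1 were lowest in the same 2 libraries and Flt4 was not. Flt4 was at 21.3 CPM in WT CD replicate 1 and 13 CPM in WT HFD replicate 3, within the 6.44 to 30.5 CPM of the other libraries. Reln was at 0.903 CPM in WT CD replicate 1 and 0.227 CPM in WT HFD replicate 3, against 3.02 to 16.9 CPM elsewhere, and Mmrn1 was at 0.903 and 0.701 CPM, against 3.16 to 20.6 CPM. The summed level of the 4 lymphatic markers ranged from 14.0 to 66.5 CPM in the tested libraries, and no marker was called in any comparison.

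Cxcl13 and its receptor Cxcr5, which place B cells in follicles, were high in the same libraries. Cxcl13 was at 0.926 and 10.8 in WT CD (6.90 in replicate 3), 11.4, 3.29 and 0.536 in WT HFD, 2.16, 3.41 and 4.11 in HoipA-KO CD and 1.67, 1.71 and 1.33 in HoipA-KO HFD. Cxcr5 was at 0.309 and 1.39 in WT CD (2.79 in replicate 3), 2.26, 0.696 and 0.185 in WT HFD, 0.615, 0.202 and 0.506 in HoipA-KO CD and 0.507, 0.404 and 0.160 in HoipA-KO HFD. WT CD replicates 2 and 3 and WT HFD replicate 1 were the high libraries for both, and neither gene was called. The B cell gene Ms4a1, which encodes CD20, was at 0.499 and 4.50 in WT CD (3.21 in replicate 3), 6.36, 1.64 and 0.309 in WT HFD, 1.41, 0.569 and 1.22 in HoipA-KO CD and 1.03, 0.673 and 0.373 in HoipA-KO HFD, and it too was highest in these libraries. The summed level of the 5 B cell markers was 4.61 and 21.4 CPM in WT CD, 23.3 in WT CD replicate 3, 3.44 to 29.2 in WT HFD, 4.0 to 11.5 in HoipA-KO CD and 6.10 to 9.16 in HoipA-KO HFD. The amount of lymphoid tissue in each pool is a measure the labels do not give, and its part in these values was not tested. Ccr7, which brings dendritic cells and T cells to CCL19 and CCL21, was called on CD, where its ligands were not. It stood at 0.713 and 0.739 in WT CD (2.56 in replicate 3), 2.46, 1.41 and 2.66 in WT HFD, 5.59, 2.17 and 5.98 in HoipA-KO CD and 3.86, 3.64 and 5.11 in HoipA-KO HFD. On CD the difference was 2.65 ± 0.50 (adjusted p = 0.00323), and on HFD, where the groups also did not overlap, it was 0.95 ± 0.40 (adjusted p = 0.136). The level in WT CD replicate 3 was near those of WT HFD, and with all 12 libraries the CD value was log2 1.75, adjusted p = 0.0391.

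**Figure D4:**
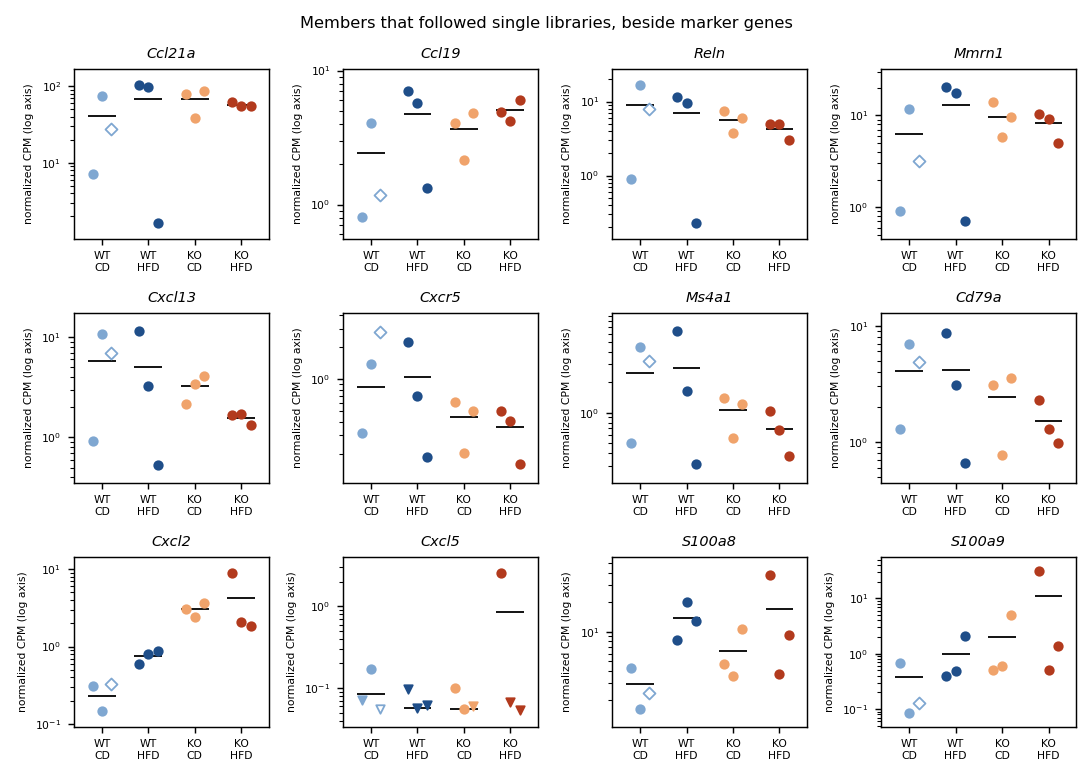
Normalised CPM (log axis) of members that followed single libraries, and of marker genes, in each library by group (KO, HoipA-KO). Points are libraries, black lines are group means, the open diamond is WT CD replicate 3 and is outside the means, and triangles are values under the floor of 3 counts, drawn at the floor. Ccl21a, Reln and Mmrn1 are lowest in the same WT HFD library (1.63, 0.227 and 0.701 CPM). Cxcl2, Cxcl5, S100a8 and S100a9 are highest in the same HoipA-KO HFD library, the one of its group with the most epididymal markers.

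The remaining ligands of barrier tissues gave a single called gene. Ccl27a, a keratinocyte ligand of CCR10, stood at 7.36 and 6.67 in WT CD (69.1 in replicate 3), 3.28, 2.94 and 2.99 in WT HFD, 2.54, 1.89 and 3.08 in HoipA-KO CD and 4.89, 2.78 and 3.42 in HoipA-KO HFD. It was lower in HoipA-KO on CD (-1.49 ± 0.29, adjusted p = 0.00428) and lower with HFD in WT (-1.19 ± 0.29, adjusted p = 0.0275), the latter call ending without any of 5 single libraries (adjusted p up to 0.0914). On HFD the genotypes overlapped (0.27 ± 0.27, adjusted p = 0.509). Far more than in any other library was held by WT CD replicate 3, and the value on CD with all 12 libraries was log2 -3.50, adjusted p = 0.0109. Ccl27a overlaps Il11ra1 on the opposite strand, and other members overlap genes there too, such as Cxcl16 (Zmynd15) and Ackr4 (Acad11). The authors name a stranded library kit, but the deposited tables do not say whether the count used the strand. Ccl25 (2.09 to 4.63 CPM) and Ccl28 (0.470 to 3.44 CPM) were not called in the tested libraries, nor were the receptors Ccr9 (0.119 to 0.669 CPM), Ccr6 (0.0184 to 0.295 CPM) and Xcr1 (0.697 to 2.31 CPM), the last known from cross-presenting dendritic cells. Ccl21d had no counts in the 11 libraries and 13.8 CPM in WT CD replicate 3. It has the exon length of Ccl21a (870 bases), and Ccl21b had 0 counts in that library. How reads were split between these genes was not tested.

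Whether the genotype difference depended on the diet was tested as an interaction, given as the HoipA-KO against WT difference on HFD minus that on CD. In 7 members it was called negative and in 1 positive, against 3.58% and 0.331% of all genes. The negative ones were Ccl3 (-4.25 ± 0.67, adjusted p = 0.0256), Ccr3 (-4.03 ± 0.76, adjusted p = 0.0281), Ccl9 (-3.41 ± 0.63, adjusted p = 0.0281), Ccl2 (-3.15 ± 0.51, adjusted p = 0.0256), Ccl6 (-2.73 ± 0.61, adjusted p = 0.0426), Ccr2 (-2.34 ± 0.31, adjusted p = 0.0256) and Ccl22 (-2.18 ± 0.44, adjusted p = 0.0320). Their genotype difference was larger on CD, where WT was low, than on HFD, where WT was higher. For Ccl27a the interaction was positive (1.76 ± 0.40, adjusted p = 0.0447). With all 12 libraries 6 members were called negative and 0 positive, and the calls for Ccl22 (log2 -1.42, adjusted p = 0.235) and Ccl27a (log2 3.76, adjusted p = 0.104) ended. Ccl8 and Cxcr6, called on HFD alone, gave interactions of 0.74 ± 0.74 (adjusted p = 0.587) and 0.32 ± 0.53 (adjusted p = 0.763), so a dependence on the diet was not shown for them. The median interaction was -0.85 over the members and -0.01 over all genes. With library size in place of TMM, 7 members were called negative and 0 positive, while 4.43% of all genes were called. With all 12 libraries that share of all genes was 2.78%. No interaction call held with every library left out in turn, and 0 members were called when WT CD replicate 2, WT HFD replicate 2, either of HoipA-KO CD replicates 1 and 2, or either of HoipA-KO HFD replicates 1 and 3 was left out, with 17 to 19 members at an unadjusted p under 0.05, while DESeq2's Wald test on the 11 libraries called 15. Without HoipA-KO CD replicate 3 there was 1, without WT HFD replicate 3 there were 4, and without WT CD replicate 1 there were 13. The direction of these 8 interactions did not reverse under any alternative run.

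**Figure D5:**
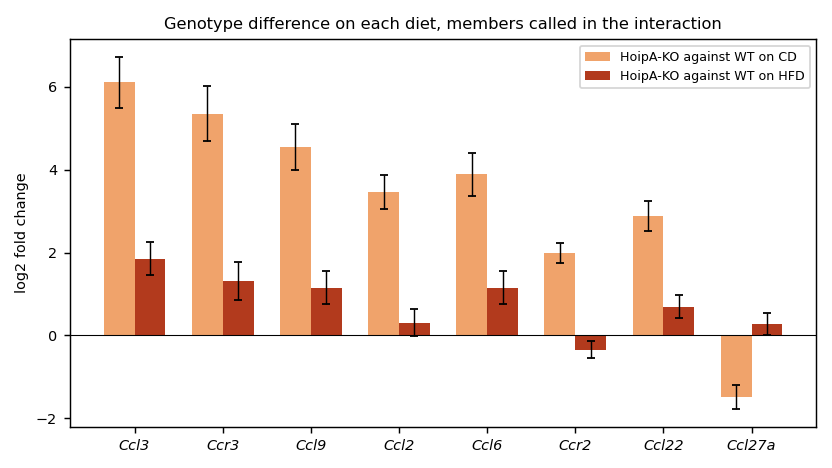
Bars give the log2 fold change of HoipA-KO against WT on CD (orange) and on HFD (red) for the 8 members called in the interaction, with standard errors. For Ccl3 the bars are 6.11 and 1.85, and for Ccr2 they are 2.00 and -0.35.

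In HoipA-KO no member was called between the diets. For Ccl3 the difference of HFD against CD was 0.20 ± 0.39 (adjusted p = 1), for Ccl2 -0.06 ± 0.32 (adjusted p = 1), for Ccl6 -0.28 ± 0.39 (adjusted p = 1), for Ccl9 -0.35 ± 0.40 (adjusted p = 1) and for Ccr3 -0.03 ± 0.45 (adjusted p = 1). The HoipA-KO HFD libraries lay above all HoipA-KO CD libraries for 4 members and below for 1, against 3.39% and 2.48% of all genes. Those above were Ackr2, Ccl4, Ccl8 and Ccl12, and that below was Cxcl13. Within each replicate number, whose meaning the labels do not give, Ccl6, Ccl9 and Ccr1 were lower on HFD than on CD. Other members also kept 1 direction in this way, such as Ccl22 (lower) and Ccl8 (higher). The share of all genes that did so was not counted. In a fit of the 6 HoipA-KO libraries with the replicate number as a block, chosen after seeing the data, 0 of 45 members were called and 9 had an unadjusted p under 0.05, with log2 -0.81, adjusted p = 0.554 for Ccr1, log2 -0.37, adjusted p = 0.590 for Ccl9 and log2 -0.28, adjusted p = 0.645 for Ccl6.

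Other genes of the pathway were called in the same comparisons, in which 18.9% of all genes were called higher on CD, 4.2% on HFD and 9.35% with HFD in WT. On HFD most of these pathway genes were not called. Of 36 G protein and effector genes through which chemokine receptors signal, 25 were higher and 1 was lower in HoipA-KO on CD, 4 were higher on HFD, and 15 were higher with HFD in WT. Of 13 genes that end receptor signalling, the arrestins, receptor kinases and regulators of G protein signalling, 10 were higher on CD, 4 on HFD and 8 with HFD in WT. Rgs1, a regulator that blunts chemokine receptor signals in leukocytes, differed by 6.39 ± 0.65 (adjusted p = 0.000452) on CD and by 4.98 ± 0.61 (adjusted p = 0.00617) with HFD in WT. Of 10 further chemokine-like and chemoattractant genes outside the naming rule, 6 were higher on CD, 2 on HFD and 2 with HFD in WT. Among them Pf4, the platelet and macrophage ligand named CXCL4, differed by 1.77 ± 0.38 (adjusted p = 0.00602) on CD and 1.22 ± 0.32 (adjusted p = 0.0398) on HFD, and Ccrl2, a non-signalling receptor of chemerin, by 2.33 ± 0.28 (adjusted p = 0.000519) on CD. None of the genes of these 3 lists was called between the diets in HoipA-KO.

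Many of the members lie in clusters of genes that arose by duplication, so neighbours can be set side by side (GENCODE M21, GRCm38). The 5 genes Ccl5, Ccl9, Ccl6, Ccl3 and Ccl4, at chr11:83525778-83664683, were all higher in HoipA-KO on CD, with log2 fold changes from 2.02 to 6.11. They are the inflammatory CC ligands given above, so this is the same result, and 18.9% of all genes were higher there. In the cluster at chr11:82035571-82116799, which holds Ccl2, Ccl7, Ccl11, Ccl12 and Ccl8, 2 of 5 were called higher in HoipA-KO on CD, with a range from -0.57 to 3.46. At chr5:92321347-92348889, Cxcl9 was lower and Cxcl10 was not called, and at chr4:41769467-42773993, Ccl27a was lower and the lymphoid ligands were not called.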

How the data were processed

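Poly(A) RNA of 12 libraries, each pooled from 3 mice, was sequenced. The authors trimmed reads (Trim Galore 0.6.7), aligned them with STAR 2.7.10a, quantified them with Salmon 1.5.2 and deposited estimated counts per gene, for which the submitters' notes name GRCm38. They also deposited DESeq2 1.38.1 result tables (fold changes and p-values of their own comparisons), which were not used here.

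The estimated counts were rounded to whole numbers, and all 55281 annotated genes entered library sizes. Genes with low counts were removed with filterByExpr, counts were normalised by TMM, and edgeR 4.0.16 (R 4.3.3) fitted a quasi-likelihood model with 4 groups on 11 libraries. WT CD replicate 3 was left out, as in the authors' comparisons, and its levels were put on the same scale. Fold changes used a prior count of 0.125. Standard errors were the log2 fold change divided by the square root of the F statistic. P-values were two-sided, adjusted by Benjamini-Hochberg over all genes tested, and measure the spread between pools. DESeq2 1.42.0, other scalings, filters and thresholds, a fit of only the groups compared, a replicate block and leaving out each library were alternatives. The scripts were tested on simulated data. Levels per kb used the exon length of GENCODE M21.

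The members and gene lists were chosen with earlier results of these data known. Every member could be named, but 1 member is kept in the counts over members and its own values are not reported here. Values in every library were given for the ligand and receptor pairs, for the 5 largest rises and falls called in each comparison, for members called in the interaction and for the 5 most abundant ones.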

Additional observations from a re-analysis of the deposited data

Results flagged for a closer look

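For 8 members the genotype difference on HFD differed from that on CD by edgeR's test of the interaction. The same test called 3.91% of all genes. No call among these members held with every library left out in turn, and those for Ccl22 and Ccl27a ended with all 12 libraries. On the log2 scale the interaction was -4.25 for Ccl3, -4.03 for Ccr3, -3.41 for Ccl9, -3.15 for Ccl2, -2.73 for Ccl6, -2.34 for Ccr2, -2.18 for Ccl22 and 1.76 for Ccl27a.

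WT CD replicate 3, which entered the comparisons only where all 12 libraries were fitted, held members at levels outside those of the other libraries. Ccl27a stood there at 69.1 CPM, and its next highest library was at 7.36 CPM. Ccl21d stood at 13.8 CPM and had no counts elsewhere. Ccl21b, in turn, had 0 counts there and counts in every other library, and the split of reads between these genes was not tested. Ccl28 stood at 8.34 CPM, with 3.44 CPM in the next library, and Ccr6 at 2.01 CPM, with 0.295 CPM in the next. The groups held 3 libraries at most, so no test for an outlying library within a group was run.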

How the results depend on the processing

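Of 54 member values past the threshold, none changed direction in 1211 repeats under other settings, 984 stayed past the threshold and 227 did not, and 17 of the 54 were past it under every alternative at 0.05. Of 176 member values that were not called, 66 changed sign and 45 were called under at least 1 alternative. The number of members called between genotypes on CD (25) stayed between 18 and 27. On HFD it was 6, with 3 in all 12 libraries, 10 with library size only, 13 with DESeq2's Wald test, 0 at an adjusted p under 0.01 (16 members at an unadjusted p under 0.05) and 1 to 9 when single libraries were left out. Between the diets in WT it was 15, with 0 when only the groups compared were fitted, 9 at an adjusted p under 0.01, 10 to 21 when single libraries were left out, and 25 in all 12 libraries without WT CD replicate 1, an alternative chosen after seeing the data. For the interaction it was 8, with 15 by DESeq2's Wald test, 5 with the replicate block, 0 at an adjusted p under 0.01 (17 members at an unadjusted p under 0.05), 0 to 13 when single libraries were left out, and 13 and 5 in all 12 libraries without WT CD replicate 1 and without WT CD replicate 2. Between the diets in HoipA-KO it was 0 throughout. The share of all genes called moved with the setting too. On HFD this share was 11.8% in the main fit, 2.78% with all 12 libraries and 13.1% with library size only. The cause of these changes was not tested.

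Samples with the same replicate number deviated together in 8 of 15 pairs (correlation over 0.1, range -0.318 to 0.609, median 0.1). The median for other numbers was -0.108. Deviations were taken from each group's own mean, so positive values for the same number force negative ones for other numbers. These medians are therefore not an independent comparison. Among the 8 pairs were all 3 of HoipA-KO CD and HFD (0.364 to 0.609), and in no other pair of groups with 3 pairs were all 3. The labels do not say what a number marks. The replicate block gave 21 members on CD, 7 on HFD, 15 between the diets in WT and 0 between the diets in HoipA-KO. With library size only, all-gene calls on HFD were 1279 higher and 1133 lower in place of 774 and 1405, and the median of all genes moved by 0.10 for the diets in HoipA-KO. With all 12 libraries it moved by -0.15 on CD. Members under about 0.1 CPM in a library rest on fewer than 10 counts there, and some higher levels do too. Ccl3 at 0.190 CPM in WT CD replicate 1 rested on 8 counts, and Ccr6 at 0.295 CPM in WT HFD replicate 1 on 9.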
